A study of Mus musculus with 6 samples.

Results

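Genes tied to the resting state of lymphocytes were examined in stage 0 iNKT cells sorted from the thymus of wild-type BALB/c mice and of SKG mice, namely Foxo1, Foxo3, Foxp1, Btg1, Btg2, Tob1, Slfn2, Pik3ip1 and Tsc22d3. They were taken by symbol from the deposited table of read counts and are 9 of its 48397 genes. Invariant natural killer T (iNKT) cells are T cells with a semi-invariant TCR that recognizes lipids on CD1d, and stage 0 is their earliest stage after positive selection. There were 3 BALB/c libraries (genotype WT) and 3 SKG libraries, the latter from mice with a point mutation of Zap70 that weakens TCR signaling. By the published methods the SKG mice were of BALB/c background too, so both groups shared the strain. All mice were 8 to 10 weeks old. Each library came from about 1000 cells sorted from the pooled thymi of 3 mice, so a replicate was a pool and differences between single mice were not seen. The comparison addresses whether weaker TCR signaling went with other levels of these genes right after selection.

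Foxo1 and Foxo3 are forkhead transcription factors that hold lymphocytes in a resting state. TCR and cytokine signals through PI3K and Akt phosphorylate them and drive them out of the nucleus, which silences targets such as Klf2 and Il7r. Btg1, Btg2 and Tob1 are antiproliferative proteins that bind the CCR4-NOT deadenylase and hasten the loss of poly(A) tails from mRNAs. Foxp1 and Slfn2 keep naive T cells quiescent, Pik3ip1 restrains PI3K at the membrane, and Tsc22d3 (GILZ) is induced by glucocorticoids. Foxo activity is set largely by protein phosphorylation, which mRNA levels do not report.

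The promoters of the BTG/TOB members are shown because these 3 genes are those of the antiproliferative family and include the one member whose libraries separated by genotype. The windows are 300 bases of RefSeq on GRCm38.p6, from 250 before to 50 after the annotated start. They are Btg1 at chr10:96616751-96617050 on the plus strand, Btg2 at chr1:134079106-134079405 on the minus strand and Tob1 at chr11:94211204-94211503 on the plus strand. Capitals mark a forkhead core (TGTTTAC or, on the other strand, GTAAACA), a cAMP response element (TGACGTCA) or a TATA box (TATAAA or TTTATA), a choice of motifs made after the sequences were seen.
Btg1: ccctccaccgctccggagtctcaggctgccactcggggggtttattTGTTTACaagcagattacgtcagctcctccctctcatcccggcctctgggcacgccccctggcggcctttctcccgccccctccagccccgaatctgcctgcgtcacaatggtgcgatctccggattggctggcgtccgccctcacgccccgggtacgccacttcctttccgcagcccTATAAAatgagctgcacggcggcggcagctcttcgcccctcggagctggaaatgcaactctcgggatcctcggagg
Btg2: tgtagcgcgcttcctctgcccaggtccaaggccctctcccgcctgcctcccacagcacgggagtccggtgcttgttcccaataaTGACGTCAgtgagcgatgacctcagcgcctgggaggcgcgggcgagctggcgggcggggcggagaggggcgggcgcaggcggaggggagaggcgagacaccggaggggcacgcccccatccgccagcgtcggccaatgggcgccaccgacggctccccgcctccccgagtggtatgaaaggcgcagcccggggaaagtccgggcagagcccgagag
Tob1: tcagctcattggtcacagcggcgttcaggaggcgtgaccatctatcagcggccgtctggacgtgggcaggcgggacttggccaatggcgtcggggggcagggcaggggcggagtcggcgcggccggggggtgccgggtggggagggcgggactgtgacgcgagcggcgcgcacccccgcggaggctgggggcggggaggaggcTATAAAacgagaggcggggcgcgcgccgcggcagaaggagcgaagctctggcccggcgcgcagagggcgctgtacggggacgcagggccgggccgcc
All 9 members matched the RefSeq table. The Btg1 window held the forkhead core at position -204 from the start and a TATA box at -26. The Tob1 window held a TATA box at -47 and that of Btg2 a cAMP response element at -166. Of 32851 mouse promoters of this length, 3.65% held the forkhead core, 1.79% the cAMP response element and 13.6% the TATA box, on either strand. These are matches of letters, and binding at these promoters was not measured here.

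Levels are given as CPM, the reads on a gene scaled to a common total per library after TMM normalization. Differences are log2 fold changes of SKG over BALB/c from the quasi-likelihood test of edgeR, with the Benjamini-Hochberg adjusted p over 12312 genes. The standard error (SE) beside a difference was derived as its absolute value over the square root of the F statistic. The 95% intervals were built from this SE with a t quantile. A gene counted as called where its adjusted p was below 0.1 and the genotypes differed 1.5-fold or more. The libraries held 37176544 to 43115544 reads on genes, but genes reached by 10 reads or more numbered 10835 in SKG 3 and 14791 in SKG 1, the lowest and highest of the 6 libraries. All 9 members passed the filter on low counts. None of them was called, and neither was any other gene in the table (0 of 12312, 0%). Without adjustment 671 genes (5.45%) had a p under 0.05, 3.07% higher and 2.38% lower in SKG, and 1 of the 9 members, Btg1, was among the lower ones. Called genes numbered 370 in DESeq2 without shrinkage and 231 with it, again with 0 members. These were 1.43% and 0.891% of the 25935 genes with any read, including any that DESeq2 left without an adjusted p. They are thus not shares of the 12312 genes tested in edgeR. The fitted values of 6 members were higher and those of 3 lower in SKG, with a median of 0.33 against -0.02 over all genes tested, of which 49.0% were higher. The members' median was 0.06 without BALB/c 3 and 0.12 without SKG 2.

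**Figure D1:**
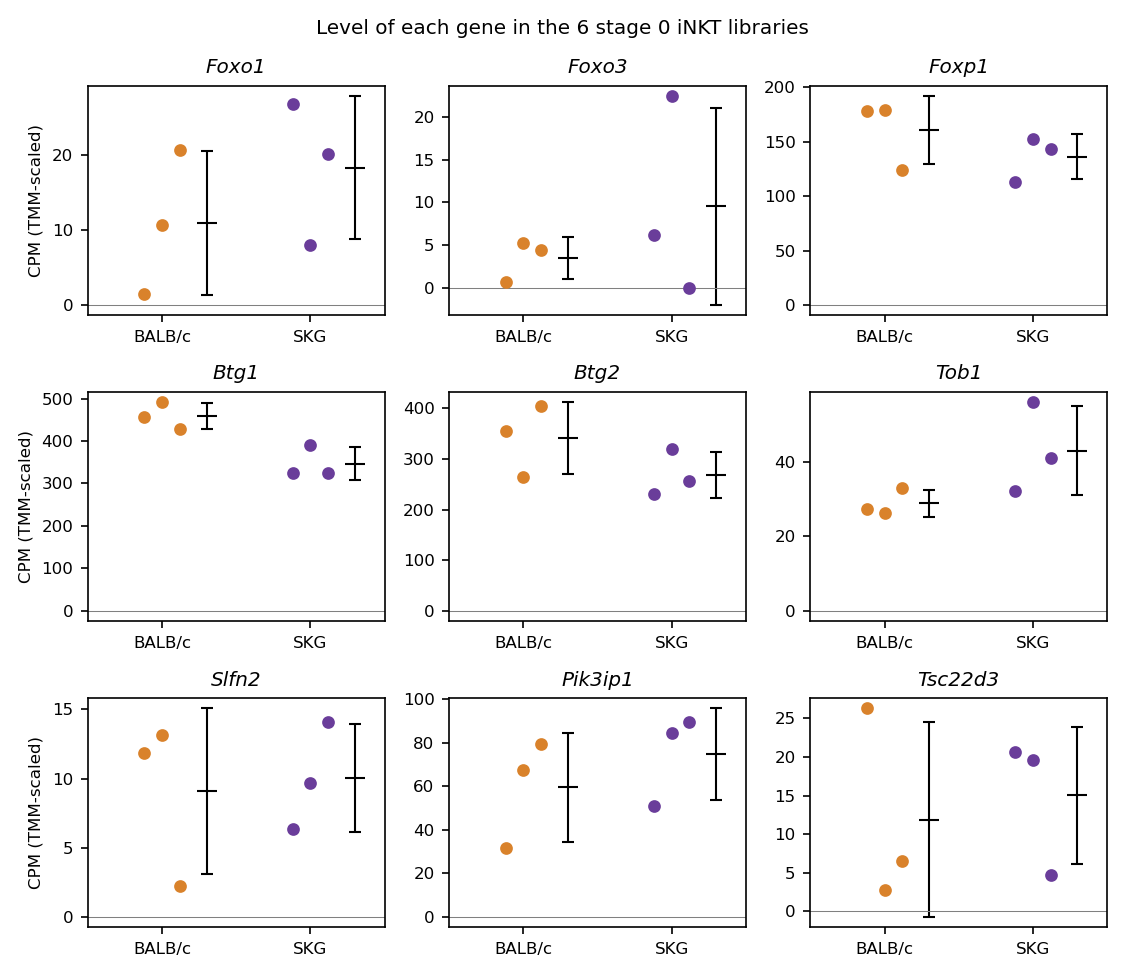
Level of each member in CPM on a linear axis in the 3 BALB/c (orange) and 3 SKG (purple) libraries, 1 point per library, with the mean and SD of each genotype beside the points. Only for Btg1 do the SKG points all lie beyond the BALB/c points, and Foxo3 has 0 reads in SKG 3.

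Btg1 was the most abundant member by CPM and the only one whose genotypes did not overlap. Its level was 457, 491 and 428 CPM in BALB/c 1, 2 and 3 and 324, 392 and 325 CPM in SKG 1, 2 and 3. Every SKG library thus lay below every BALB/c library, with means of 347 ± 39.0 against 459 ± 31.4 CPM (SD, n = 3 libraries each). The log2 fold change was -0.40 ± 0.14 (SE), a level 1.32-fold higher in BALB/c, with an unadjusted p of 0.0257 and an adjusted p of 0.834 in edgeR. Its 95% interval ran from -0.74 to -0.07. The two-sided exact permutation test gave p = 0.1, the smallest that 3 against 3 libraries allow. Of all genes tested, 13.9% did not overlap, and 7.12% of all genes tested did so with lower SKG values, so 1 of 9 members is near the background. The count of members without overlap was 3 without BALB/c 3 or without SKG 1. With 1 library fewer the groups separate more easily. The share of all genes was not computed for those fits, so these counts have no background. Btg1 lies on chromosome 10 (96617006 to 96622809, plus strand, GRCm38), and its exons span 5276 bases.

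Btg2, the close paralog of Btg1 and a gene induced early by TCR signals and by p53, followed the same direction with wider spread. The BALB/c libraries held 354, 264 and 404 CPM, and the SKG libraries 229.9, 319 and 256 CPM. SKG 2 lay above BALB/c 2, so the groups overlapped (341 ± 70.9 against 268 ± 45.9 CPM). The difference of -0.34 ± 0.21 had an adjusted p of 0.977, and its 95% interval from -0.86 to 0.17 does not reach a 1.5-fold rise in SKG but does include a fall of that size. Per length of exon, Btg1 made up 40.2%, 49.1% and 35.5% of the summed Btg1 and Btg2 level in BALB/c and 42.3%, 39.0% and 39.7% in SKG. The balance of the pair did not differ beyond the spread (41.6% ± 6.93 against 40.3% ± 1.73, exact permutation p = 0.8).

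Tob1, the third antiproliferative member, had the opposite sign. It stood at 27.3, 26.3 and 33.0 CPM in BALB/c and at 32.0, 55.9 and 41.0 CPM in SKG. The overlap came from SKG 1 and BALB/c 3 alone, and SKG 2 was the highest library. The difference was 0.57 ± 0.38 (means 28.9 ± 3.61 and 43.0 ± 12.0 CPM), with an adjusted p of 0.987, and it was 0.35 without SKG 2. Tob2, its paralog and no member, was at 63.2, 116 and 85.5 CPM in BALB/c and at 167, 211 and 159 CPM in SKG. All SKG libraries were above all BALB/c libraries, by 1.02 ± 0.27 on the log2 scale, with an unadjusted p of 0.0075 and an adjusted p of 0.686 in edgeR. DESeq2 without shrinkage gave Tob2 an adjusted p of 0.0997 and called it, and DESeq2 with shrunken fold changes did not.

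Of the deadenylase itself, 14 genes of the CCR4-NOT complex and its partners were tested and 0 were called. The values of 10 were higher and those of 4 lower in SKG, with a median of 0.12. Cnot1, the scaffold of the complex, had 228, 188 and 249 CPM in BALB/c and 436, 443 and 265 CPM in SKG (0.78 ± 0.24, adjusted p = 0.830). Cnot6, a catalytic subunit named after its values were seen, was the other gene of the list without overlap (1.08 ± 0.48, adjusted p = 0.947). Non-overlap with higher SKG values held for 6.77% of all genes tested.

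**Figure D2:**
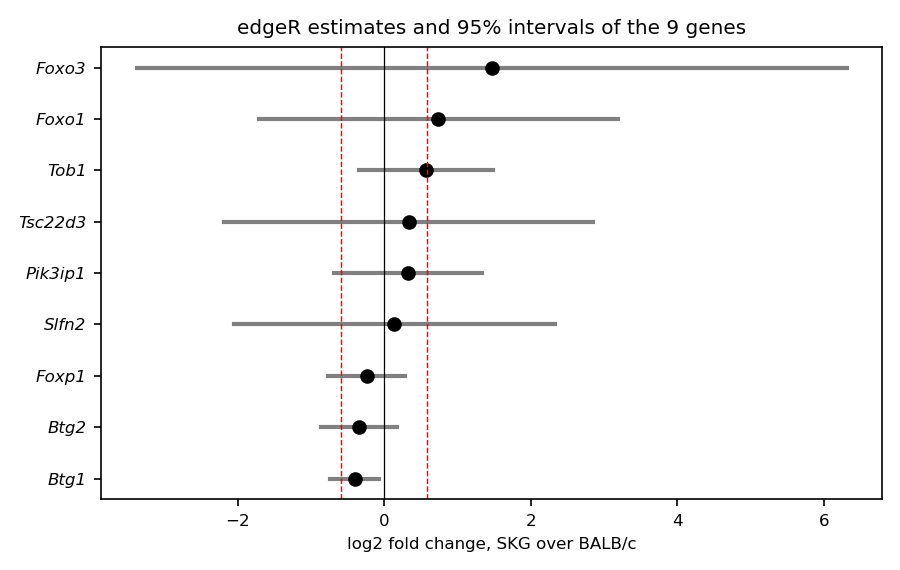
Log2 fold change of SKG over BALB/c for each member, with its 95% interval derived from the F statistic of edgeR. A line marks no difference and dashed lines 1.5-fold either way. The interval of Btg1, from -0.74 to -0.07, is the only one that leaves out 0, and that of Foxo3 is the widest.

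Foxo1 was present at moderate level in 5 libraries and low in BALB/c 1. Its CPM were 1.53, 10.6 and 20.6 in BALB/c and 26.7, 8.00 and 20.0 in SKG. The highest BALB/c library exceeded the lowest 13.5-fold, more than the 3.34-fold range within SKG. The difference of 0.74 ± 1.02 (means 10.9 ± 9.56 and 18.3 ± 9.49 CPM) was smaller than this spread, with an adjusted p of 0.991. It was 0.23 without BALB/c 1 and 1.60 without BALB/c 3. Foxo1 lies on chromosome 3 (52268336 to 52353221, plus strand). Its exons share 674 bases with the antisense gene Gm20402, which has 0 reads, and since the counting ignored strand the reads of the pair cannot be told apart.

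Foxo3 was the scarcest member and the least reproducible. It had 0.679, 5.26 and 4.41 CPM in BALB/c and 6.18, 22.4 and 0 CPM in SKG. SKG 3 had 0 reads, which allows up to 3 reads or 0.0830 CPM by counting error only, while SKG 2 held 871 reads and was the highest of all. The fitted difference of 1.47 ± 2.02 (adjusted p = 0.991) was -0.14 without SKG 2 and 2.07 without SKG 3. Its interval, from -3.38 to 6.31, leaves the direction undetermined at this replication. Foxo1 took 66.3%, 63.8% and 80.4% of the summed Foxo1 and Foxo3 level per length in BALB/c and 79.1%, 23.8% and 100% in SKG. SKG 2 was the single library with more Foxo3 than Foxo1 (exact permutation p = 0.9). Foxo4, the most abundant other Foxo gene, had a difference of -0.56, and Foxo6 had 0 reads in all 6 libraries.

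Foxp1, a forkhead factor that acts against Foxo1 at Il7r, was the abundant and even one of the 3 forkhead members. The levels were 177.9, 178.8 and 124 CPM in BALB/c and 113, 152 and 143 CPM in SKG. BALB/c 3 lay within the SKG range, and the difference of -0.23 ± 0.22 had an adjusted p of 0.991 (means 160.3 ± 31.2 and 136 ± 20.7 CPM). The interval, -0.76 to 0.29, does not include a 1.5-fold rise in SKG but does include a fall of that size. Of its exonic bases, 300 are shared with Gm20696 on the same strand, which had 190 reads over all libraries against 35244 for Foxp1.

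Genes that Foxo factors are known to switch on were read as an outside view of the same pathway. Of 19 tested targets 0 were called, and the fitted values of 12 were higher and of 7 lower in SKG with a median of 0.39. An unadjusted p under 0.05 was seen for 2 of them, both higher in SKG, against 3.07% of all genes. Txnip, which binds thioredoxin and limits glucose uptake, stood at 32.8, 83.4 and 54.6 CPM in BALB/c and at 90.0, 147 and 106 CPM in SKG. Its libraries did not overlap, and the difference was 1.00 ± 0.39 with an adjusted p of 0.877. Klf2, a factor for thymic exit, was the other (3.64 ± 1.17, adjusted p = 0.830), and DESeq2 called it both with and without shrinkage. Klf2 had 4.44, 0.377 and 15.8 CPM in BALB/c and 66.0, 84.0 and 107 CPM in SKG, and BALB/c 2 held 14 reads. The difference of Klf2 was 5.15 without BALB/c 3, 3.07 without BALB/c 2 and 2.3 in DESeq2 with shrunken fold changes. Sesn1, an inhibitor of mTORC1 named after its values were seen, completed the 3 targets without overlap, at 46.7, 43.9 and 35.9 CPM in BALB/c and 47.2, 58.8 and 103 CPM in SKG. The gap between the groups was small for Sesn1, and its adjusted p was 0.953. Over all genes tested, 6.77% did not overlap with higher SKG values.

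Upstream of Foxo, 28 genes were tested, of the PI3K and Akt pathway, its phosphatases, the 14-3-3 proteins, and also Skp2, Mdm2, Usp7 and Sirt1. Of these 28 genes 0 were called. The values of 16 were higher and of 12 lower in SKG, with a median of 0.04 and 0 genes at an unadjusted p under 0.05, where 5.45% of all genes stood. Non-overlap was seen for Pik3r1, a regulatory PI3K subunit (-0.56 ± 0.42, adjusted p = 0.991), and for Sgk3, a kinase that can phosphorylate Foxo factors (3.18 ± 1.41, adjusted p = 0.947). Both were named after their values were seen, and Sgk3 was 4.46 without BALB/c 3 and 2.37 without SKG 2. Across all genes tested, 13.9% did not overlap in one direction or the other.

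Pik3ip1, the PI3K inhibitor among the members, varied more between libraries than between genotypes. Its level was 31.4, 67.3 and 79.5 CPM in BALB/c and 50.8, 84.3 and 89.2 CPM in SKG. In either genotype replicate 1 was the lowest library, and the groups overlapped (59.4 ± 25.0 against 74.8 ± 20.9 CPM). The difference of 0.33 ± 0.42 (adjusted p = 0.991) was 0.03 without BALB/c 1 and 0.60 without BALB/c 3. Pik3ip1 shares 91 exonic bases with Gm12592 on the opposite strand, which had 216 reads against 15934.

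Slfn2 and Tsc22d3 were low and uneven. Slfn2, whose loss breaks T cell quiescence in mice, had 11.9, 13.2 and 2.26 CPM in BALB/c and 6.33, 9.67 and 14.1 CPM in SKG. The low value of BALB/c 3 stood apart from the other 2 of its group, and the difference of 0.14 ± 0.91 (adjusted p = 0.999) turned to -0.32 without that library. Of its 50-base stretches 4.27% also occur in Slfn4, so reads there may have been lost or split. Tsc22d3 had 26.3, 2.83 and 6.53 CPM in BALB/c and 20.7, 19.6 and 4.76 CPM in SKG. High and low libraries occurred in both genotypes (0.34 ± 1.05, adjusted p = 0.991), and the value was -0.12 without BALB/c 2 and 1.69 without BALB/c 1.

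Other genes of the glucocorticoid response, of which Tsc22d3 is a classic target, were tested beside it. Of 14 genes 0 were called, and the values of 11 were higher and of 3 lower in SKG with a median of 0.40. Fkbp5, a chaperone that damps the glucocorticoid receptor, had 65.5, 44.5 and 52.6 CPM in BALB/c and 79.2, 134 and 287 CPM in SKG. Every SKG library was above every BALB/c library (1.62 ± 0.48, unadjusted p = 0.0130, adjusted p = 0.815 in edgeR), whereas the groups overlapped for Tsc22d3. Without SKG 3 the difference of Fkbp5 was 0.99. The other genes of the list without overlap and with higher SKG values, named after their values were seen, were Sesn1 and Rhob, a small GTPase (2.48 ± 1.4, adjusted p = 0.971, and 5.53 without BALB/c 3). Zfp36, an mRNA decay factor of the same list, had the opposite sign (-0.85 ± 0.30, adjusted p = 0.834) and did not overlap either. Background shares without overlap were 6.77% with higher and 7.12% with lower SKG values.

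**Figure D3:**
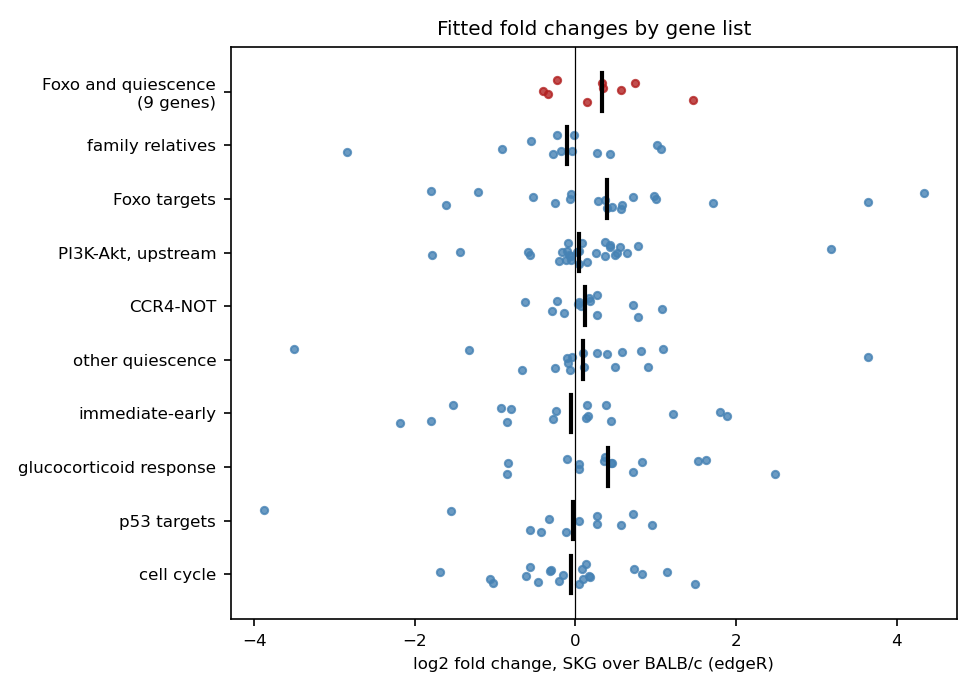
Log2 fold change of SKG over BALB/c for each tested gene of the members and of the gene lists, 1 point per gene (members in red), with a black bar at the median of each list. The medians lie between -0.11 for relatives of the members and 0.40 for the glucocorticoid response, against -0.02 over all genes tested.

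Relatives of the members from the same families were read the same way. Of 18 listed, 12 were tested, and the values of 4 were higher and of 8 lower in SKG with a median of -0.11 and 0 called. The 2 with an unadjusted p under 0.05 were Tob2 and Tsc22d2, a TSC22 domain gene related to Tsc22d3. Tsc22d2 stood at 25.8, 36.4 and 36.2 CPM in BALB/c and at 73.4, 69.9 and 63.5 CPM in SKG. The groups were well apart, by 1.07 ± 0.29 with an adjusted p of 0.725 in edgeR, and DESeq2 called Tsc22d2 with and without shrinkage. The most abundant relatives of the other families differed little, with -0.28 for Foxp4, -0.23 for Btg3 and 0.27 for Tsc22d4. Slfn8, the most abundant other Schlafen gene per length of exon, ranged from 0.0485 to 19.7 CPM within BALB/c alone (-0.18).

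Further genes of T cell quiescence gave 10 higher and 8 lower values among 18 tested, with a median of 0.10. Zfp36l2, an RNA-binding protein that restrains proliferation of thymocytes, had 229.8, 351 and 205 CPM in BALB/c and 386, 483 and 597 CPM in SKG (0.90 ± 0.26, adjusted p = 0.801). All SKG libraries exceeded all BALB/c libraries for this gene. Vsir, a checkpoint receptor (VISTA) named after its values were seen, went the other way at 61.7, 27.8 and 17.4 CPM in BALB/c and 4.07, 5.35 and 0.0277 CPM in SKG (-3.50 ± 1.52, adjusted p = 0.944). Without single libraries its difference ranged from -4.10 (SKG 2) to -2.83 (BALB/c 1). With Klf2, which is on this list too, these were the 3 genes of the list without overlap. Among all genes tested, 13.9% were without overlap.

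Immediate-early genes, the class to which Btg2 belongs, were counted beside it. Of 16 tested 5 did not overlap with lower SKG values, namely Ier2, Egr1, Egr2, Zfp36 and Nr4a2, and Jun did not overlap with higher ones. The background was 7.12% and 6.77%. Ier2 had the largest of the differences with an unadjusted p under 0.05, at 1071, 799 and 668 CPM in BALB/c and 318, 297 and 266 CPM in SKG (-1.53 ± 0.20, adjusted p = 0.380). DESeq2 called Ier2 and Egr1 with and without shrinkage. Btg2 differed by less than either, and its groups overlapped.

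Per length of exon, the order of the members over all 6 libraries was Btg2 at 111 CPM per kb, Btg1 at 76.3, Pik3ip1 and Tob1 at 15.7 each, Foxp1 at 10.8, Slfn2 at 5.75, Tsc22d3 at 3.10, Foxo1 at 1.68 and Foxo3 at 0.857. Btg2 lay above Btg1 in all 6 libraries, at 124 ± 25.8 against 86.9 ± 5.96 CPM per kb in BALB/c and 97.8 ± 16.7 against 65.7 ± 7.40 in SKG, and both lay above the other members in every library. In BALB/c the levels of Pik3ip1 (13.9 ± 5.85), Tob1 (12.6 ± 1.58) and Foxp1 (11.7 ± 2.27) did not differ beyond their spread. In SKG, Foxp1 (9.91 ± 1.51) lay below Tob1 (18.8 ± 5.26) and Pik3ip1 (17.5 ± 4.89) in every library. From Slfn2 down, the ranges of mean ± SD of neighbours in the order overlapped in either genotype. Slfn2, Tsc22d3, Foxo1 and Foxo3 were at 5.47 ± 3.59, 2.74 ± 2.90, 1.26 ± 1.10 and 0.455 ± 0.322 in BALB/c. In SKG they were at 6.03 ± 2.34, 3.46 ± 2.05, 2.11 ± 1.10 and 1.26 ± 1.53. Within libraries, Foxo1 lay above Foxo3 in all but SKG 2. Lengths are of all annotated exons merged, so a gene used in a short form reads low on this scale.

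The members differed widely in their spread between libraries of a genotype. The SD of log2 CPM within genotype, with a prior count of 2, was 0.13 for Btg1, 0.27 for Foxp1, 0.28 for Btg2 and 0.31 for Tob1. These values lie at percentiles 1.87, 14.3, 15.7 and 19.3 of the genes tested. Pik3ip1 stood near the middle at 0.60, and Slfn2 (1.08), Tsc22d3 (1.42), Foxo1 (1.51) and Foxo3 (3.47) were above it, Foxo3 at percentile 94.7. The wide members were also those of low level, and Btg1 and Btg2 were at percentiles 97.1 and 95.2 of mean CPM. Tob1, at percentile 53.5 of level, was tighter than Pik3ip1 at percentile 68.5.

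**Figure D4:**
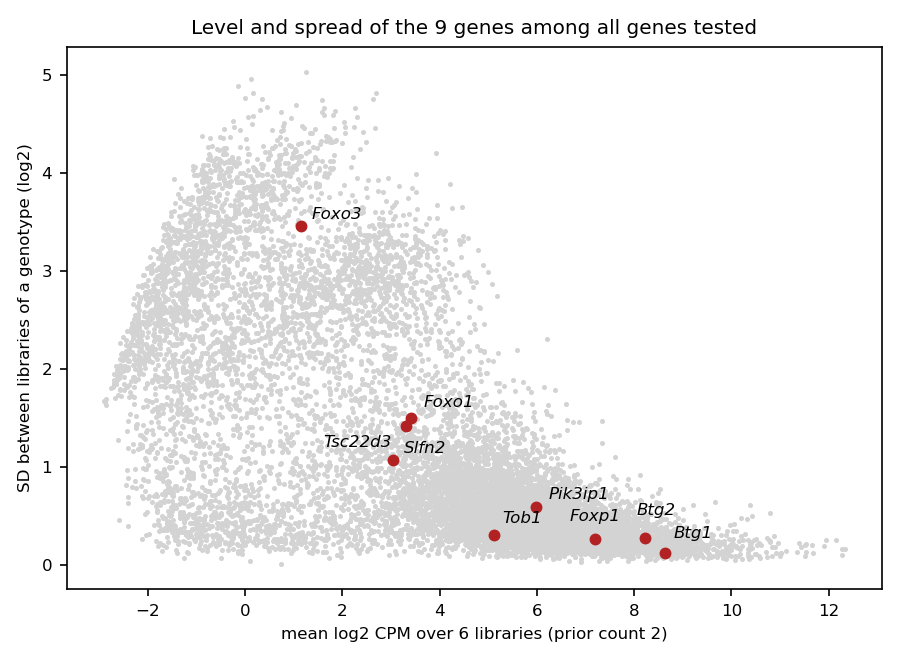
SD of log2 CPM between libraries of a genotype (y axis) against mean log2 CPM over the 6 libraries (x axis), both with a prior count of 2, for all genes tested (grey) and the members (red). Btg1 lies at the lower right with an SD of 0.13, and Foxo3 at the upper left with 3.47.

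Genes whose profile over the 6 libraries was most like a member were found by the root mean square difference of centred log2 CPM. For Btg1 they were Nrbp1 (0.0641), Snrpa1 (0.0657) and the pseudogene Gm5863 (0.0800). Nrbp1, a pseudokinase, had 335, 385 and 344 CPM in BALB/c and 249.9, 297 and 274 CPM in SKG. Its lack of overlap is no separate observation, since Nrbp1 was chosen for its likeness to Btg1. For Btg2 they were 1700097N02Rik (0.0637), Gm6055 (0.0793) and Gm12918 (0.0933), all scarce. For Pik3ip1 they were Itpr2 (0.0786), Ttc33 (0.104) and Tdg-ps (0.133), with Itpr2, an intracellular calcium channel, at 39.6, 80.6 and 96.3 CPM in BALB/c and 67.8, 97.6 and 101 CPM in SKG. For Foxo1 the nearest was Fastkd2 (0.248), which was likewise lowest in BALB/c 1 at 6.18 CPM. The likeness rests on 6 libraries and 12312 candidate genes and is given as a description.

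The sort was checked by its markers. Cd69, a marker of the gate, was at 312, 391 and 354 CPM in BALB/c and 152, 179 and 250 CPM in SKG, so it was lower in every SKG library. Cd24a, another gate marker, ranged from 7.31 to 52.4 CPM in BALB/c and from 31.9 to 90.7 CPM in SKG. Zbtb16, the iNKT lineage factor PLZF, was present in all 6 libraries. Summed markers of DP thymocytes were highest in BALB/c 1 (504 CPM against 153 to 332 CPM in the others), the library with the least Foxo1 and the most Tsc22d3. BALB/c 1 also had the highest B cell sum (94.9 CPM) and erythroid sum (69.7 CPM), whereas SKG 3, the library without Foxo3 reads, had the highest myeloid sum (135 CPM). Reads on these lists fell on a few genes. Ighm gave 88.1 CPM in BALB/c 1 and 3.52 to 36.6 CPM in the others, and Lyz2 gave 53.7 CPM in BALB/c 1, 107 CPM in SKG 3 and at most 5.07 CPM elsewhere. At 0 in all libraries were 1 of 8 B cell genes, 2 of 10 myeloid genes and 4 of 8 erythroid genes. Markers of mature T cells summed to 304 to 439 CPM in BALB/c and 374 to 619 CPM in SKG. Of the 9 tested, 6 had higher and 3 lower fitted values in SKG, and those without overlap were Klf2 and, named after their values were seen, Ly6c2 (2.53 ± 0.96, adjusted p = 0.871) and Nkg7 (-3.01 ± 1.77, adjusted p = 0.972). DESeq2 called Ly6c2 with and without shrinkage. Lack of overlap was found for 13.9% of all genes tested. The sums of all these lists overlapped between the genotypes, and their part in the members' levels was not tested. In bulk RNA a smaller share of cells with a gene and less RNA per cell cannot be told apart. Zap70 was at 448 ± 65.4 CPM in BALB/c and 356 ± 45.9 CPM in SKG (-0.33, adjusted p = 0.953), and since SKG is a point mutation its level does not check the labels.

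**Figure D5:**
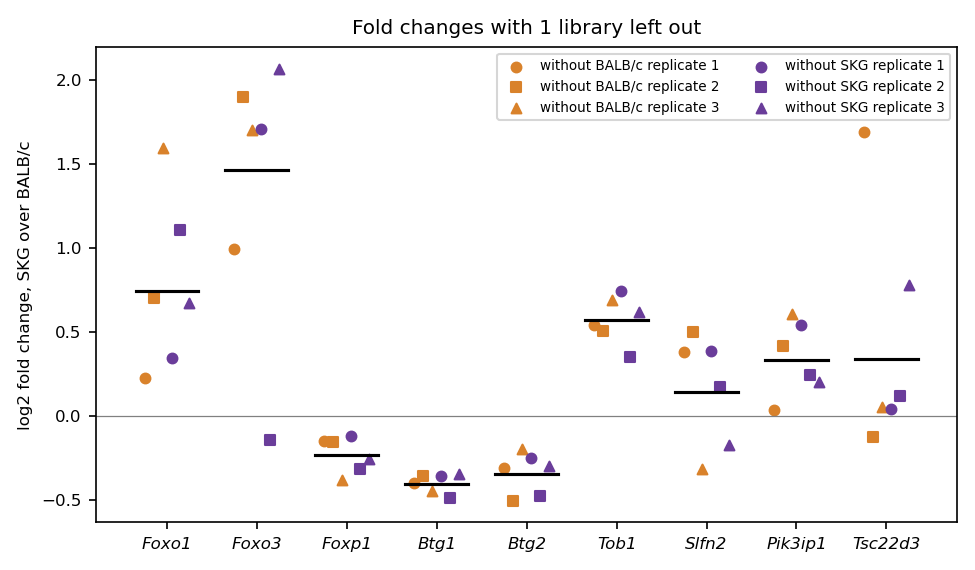
Log2 fold change of SKG over BALB/c for each member, with a black bar for the fit of all 6 libraries and 1 symbol for each fit that leaves out 1 library. Btg1 stays between -0.49 and -0.35, whereas Foxo3 moves between -0.14 and 2.07 and Slfn2 between -0.32 and 0.50.

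In the fits that left out 1 library, Btg1, Btg2 and Foxp1 kept lower fitted values and Foxo1, Tob1 and Pik3ip1 kept higher fitted values in SKG. Tob1 ranged from 0.35 to 0.74, Btg2 from -0.51 to -0.20 and Foxp1 from -0.38 to -0.12. Foxo3, Slfn2 and Tsc22d3 changed sign. None of the 9 was called in any of these fits.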

How the data were processed

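Stage 0 iNKT cells were profiled by polyA RNA-Seq as single-end reads of 50 nt. The labels and the published methods name different amplification kits, which was not settled. The authors aligned reads with HISAT2 2.1.0 to GRCm38 and counted those on exons with featureCounts (Subread 1.4.4), unstranded, at a minimum mapping quality. The table holds raw counts per gene as deposited by the authors, and a second table, their DESeq2 1.14.1 comparison, was not used. Groups came from the genotype labels.

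Counts of all 6 libraries entered 1 fit in edgeR 4.0.16 (R 4.3.3) with TMM, filterByExpr by genotype and the quasi-likelihood F test. It was tried on simulated counts with 200 genes changed 8-fold and the same dispersion for all genes. The test called 200 of the changed genes at a dispersion of 0.05 and 0 at 0.8. The common dispersion of these libraries was 0.842. Real genes differ in spread, so the simulation does not give the power for tight members such as Btg1. Alternatives used DESeq2 1.42.0, limma 3.58.1, other scalings and filters, blocks, a covariate and left-out libraries. Same-numbered libraries had residual correlations between -0.145 and 0.00289 and were not paired. The members, lists and tests were chosen with earlier results of these data known. Genes named are the members, up to 4 genes a list with an unadjusted p under 0.05, the most abundant relative of each family, the 3 closest profiles of 4 members and Zap70, with exceptions stated. Positions are from GENCODE. PCR copies were counted as reads.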

Additional observations from a re-analysis of the deposited data

How the results depend on the processing

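Over 17 alternatives the fitted sign of the members was kept in 146 of the comparisons made and reversed in 7, and 0 members were called in any. Called genes numbered 0 in the edgeR fits with a filter on low counts and 2 in the edgeR fit without one. They numbered 370 in DESeq2 without shrinkage and 231 with shrinkage, and genes of the lists 7 and 6 in the DESeq2 fits. DESeq2 without shrinkage and the absence of a filter moved the median of all genes by 0.13 and 0.11. With the replicate block by title number 0 genes were called and the members' median was 0.39, and with the library-number replicate block it was -0.10. In the library-number block, BALB/c 3 and SKG 1 had no library of the same number in the other genotype. Its differences thus rest on BALB/c 1 and 2 and SKG 2 and 3 alone. With single libraries left out the median ranged from 0.06 to 0.42 and the number of members without overlap from 1 to 3. The share of all genes without overlap was not computed for those fits. Foxo3 was -0.95 in limma-voom, -1.54 with the library-number replicate block and -0.14 to 2.07 with libraries left out. Slfn2 was -0.10 with that block and -0.32 to 0.50 with libraries left out, and Tsc22d3 was -0.12 to 1.69. Among the other 33 genes named, Btg3 was -0.42 to 0.03 with libraries left out, and Slfn8 was 1.25 in limma-voom, 1.29 and 3.07 with the replicate and library-number blocks and -0.84 to 2.24 with libraries left out. The cause was not tested. Few cells per library and 3 libraries a genotype limit what the low members can show.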

Other observations

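Trp53 and genes induced by p53, as Btg2 is, were not uniform. Of 12 tested, the fitted values of 6 were higher and of 6 lower in SKG, with a median of -0.03 and 0 called by edgeR (0% of 12312 genes). Bbc3, which encodes the proapoptotic protein PUMA, had 31.0, 35.3 and 46.9 CPM in BALB/c and 14.6, 10.3 and 13.8 CPM in SKG. All SKG libraries were below all BALB/c libraries (log2 fold change -1.55 ± 0.46, adjusted p = 0.823 in edgeR), and DESeq2 called Bbc3 with and without shrinkage. Trp53inp1, an inducer of autophagy and cell death, went the other way at 120, 159 and 220 CPM in BALB/c and 263, 418 and 286 CPM in SKG (0.95 ± 0.29, adjusted p = 0.830). Zmat3, an RNA-binding protein, had the largest difference of the list (-3.88 ± 1.35, adjusted p = 0.834), at 4.51, 21.8 and 3.25 CPM in BALB/c and 1.41, 0.283 and 0.304 CPM in SKG. Its groups did not overlap, DESeq2 called it with and without shrinkage, and the difference was -2.54 without BALB/c 2 and -5.05 without SKG 1. Trp53 itself was at 734, 522 and 461 CPM in BALB/c and 378, 426 and 359 CPM in SKG, without overlap (-0.56 ± 0.20, adjusted p = 0.845).

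Genes of the cell cycle gave 10 higher and 10 lower values among 20 tested, with a median of -0.06. Mcm2, a subunit of the replicative helicase, was at 490, 534 and 385 CPM in BALB/c and 316, 362 and 345 CPM in SKG (-0.46 ± 0.16, adjusted p = 0.834 in edgeR). Pcna, the DNA polymerase clamp, was named after its values were seen and did not overlap either (-0.56 ± 0.34, adjusted p = 0.972). Among all genes tested 7.12% did not overlap with lower SKG values.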
